A study of Homo sapiens with 12 samples.

Results

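The genes described here encode the enzymes that make cholesterol, the proteins that sense sterols and switch those enzymes on, and the proteins that move cholesterol into, through and out of the cell. The set is defined by gene name and not by a measured value, but it was chosen with earlier results of these data known. It names 30 genes, of which 29 have a probe set that carries no other gene, and these 29 genes hold 30 of the 28869 probe sets of the array. HSD17B7 is named too, but its probe set also carries a pseudogene. MSMO1 and SC5D stand under the older names SC4MOL and SC5DL in the deposited file and were found by their Entrez gene numbers. Of the 29 genes, 28 were bright enough to be tested, among 12151 genes tested in all. ABCG1, a cholesterol exporter, lay below the filter level of 7.29 on the log2 scale, at 6.45 to 6.90 on all 12 arrays.

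Total RNA of MDA-MB-231, a human cell line established from a breast cancer, was measured on 12 arrays in 4 groups of 3. The first group received 15 nM of an siRNA against FECH with 0.1 mM 5-aminolevulinic acid (5-ALA), the second 15 nM of the commercial Allstar control siRNA with 0.1 mM 5-ALA, the third 0.1 mM 5-ALA only, and the fourth no treatment. All cells were grown in RPMI medium with fetal calf serum, a source of lipoproteins. FECH encodes ferrochelatase, the enzyme that completes heme by placing iron in protoporphyrin IX, and 5-ALA is the precursor from which cells build that porphyrin. The FECH group rests on a single siRNA sequence of 19 nucleotides in 1 cell line, shown here because every result for that group depends on it, and the labels do not say which strand is the guide.
FECH siRNA: gaauauccucuugguuccg

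FECH itself was at 6.53 ± 0.09 on the log2 scale with FECH siRNA, against 8.55 ± 0.05 with control siRNA, 8.50 ± 0.12 with 5-ALA only and 8.49 ± 0.09 without treatment (SD, n = 3 each). That is 4.06-fold lower in signal than with control siRNA (limma adjusted p = 1.7e-09), where the signal with FECH siRNA is under the filter level and not shown to exceed background, so the fold is a ratio of signals only. Median log2 signals per array lay between 7.25 and 7.34. The mesenchymal markers VIM, CD44, CAV1 and AXL were above the filter level on all 12 arrays. Of the luminal markers, FOXA1 and TFF1 lay near that level, at 7.20 to 7.42 and at 6.99 to 7.44, while EPCAM (7.58 to 8.05), CLDN3 (8.21 to 8.47), GATA3 (8.69 to 8.99) and KRT19 (9.67 to 10.62) were above it. The third untreated array stood apart, with 416 genes over 0.5 from the other untreated arrays' mean on the log2 scale, against 10 to 115 genes for each of the other 11 arrays. Nothing in the labels tells whether replicates were grown as separate cultures, and the p-values therefore cover the spread between these samples only.

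Cells build cholesterol from acetyl-CoA in the cytosol and the endoplasmic reticulum, first through mevalonate to the branched lipid farnesyl diphosphate, then through squalene and lanosterol, and they also take it up with lipoproteins. When sterols in the endoplasmic reticulum are low, SCAP carries the SREBP transcription factors to the Golgi, where they are cut and freed to switch on the genes of synthesis and uptake. When sterols are plentiful, INSIG proteins hold SCAP back, and oxysterols act on the nuclear receptor LXR, which raises genes of efflux such as ABCA1. Rapidly dividing cancer cells use this pathway to build membranes.

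Promoter windows of RefSeq (GRCh38.p14, 250 bases before to 50 after the start of a gene) were found for 25 of the 29 genes. None was found for SQLE, FDFT1, ACAT2 and ABCG1. The windows below belong to SREBF2, which held the only match in the windows found to the sterol response sequence searched for, and to STARD4 and MYLIP, the members with the largest fall and the largest rise against control siRNA, which were chosen after their values were seen. Other forms of a sterol response sequence were not searched for, so a window without a match is not shown to lack one. Capitals mark matches, on either strand, to TCACNCCAC (the sterol response sequence searched for) and to CCAAT, which reads ATTGG on the other strand and is bound by NF-Y, a partner of SREBPs.
STARD4, chr5:111512486-111512785, minus strand: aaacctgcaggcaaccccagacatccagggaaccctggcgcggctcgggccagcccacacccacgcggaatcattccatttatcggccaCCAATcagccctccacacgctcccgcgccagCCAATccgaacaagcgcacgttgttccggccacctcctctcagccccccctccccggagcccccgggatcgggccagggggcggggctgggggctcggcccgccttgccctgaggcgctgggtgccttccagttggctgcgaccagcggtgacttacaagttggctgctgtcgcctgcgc
SREBF2, chr22:41832855-41833154, plus strand: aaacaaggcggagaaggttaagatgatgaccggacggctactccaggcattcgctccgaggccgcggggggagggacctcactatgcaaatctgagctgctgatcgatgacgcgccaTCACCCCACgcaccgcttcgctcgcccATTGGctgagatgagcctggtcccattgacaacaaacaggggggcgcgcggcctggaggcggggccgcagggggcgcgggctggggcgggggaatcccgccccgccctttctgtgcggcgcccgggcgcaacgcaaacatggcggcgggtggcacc
MYLIP, chr6:16128836-16129135, plus strand: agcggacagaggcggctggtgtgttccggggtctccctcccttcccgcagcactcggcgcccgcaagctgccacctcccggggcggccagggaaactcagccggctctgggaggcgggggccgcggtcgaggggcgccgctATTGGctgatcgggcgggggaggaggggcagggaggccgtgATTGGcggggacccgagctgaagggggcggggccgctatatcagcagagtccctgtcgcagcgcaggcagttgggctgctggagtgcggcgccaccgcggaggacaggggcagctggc

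Some genes have several starts, so the 25 genes held 34 windows. TCACNCCAC was in 1 of these 34, against 1.13% of all 35097 windows in the table, and that match did not overlap a CCAAT match. CCAAT was in 19 of 34 member windows (55.9%), against 34.6% of all windows, and GGGCGG, the core of a GC box, was in 31 of 34 (91.2%), against 44.9% of all. Among the enzymes of synthesis, 14 of 19 windows held CCAAT (73.7%). Genes that fell with FECH siRNA against control siRNA held CCAAT in 8 of 14 windows (57.1%), and the other members in 11 of 20 (55.0%). The windows of the falls leave out SQLE and FDFT1, and they count IDI1 and INSIG2 more than once. These counts describe the letters of the windows, and no test was made on them.

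FECH siRNA was compared with control siRNA to ask what changed when FECH was targeted in cells that all had 5-ALA and an siRNA. Of the 28 members 13 fell, 3 rose and 12 did not pass the test (limma, adjusted p below 0.05 over all 12151 genes). The background was high, since 17.8% of all genes fell and 20.4% rose. The falls took in the sterol carrier STARD4, the sensor INSIG2, the exporter ABCA1, both SREBP genes and 8 of the 17 tested enzymes of synthesis, while MYLIP, SC5D and NPC1 rose. The median difference of the members was -0.24 on the log2 scale, against -0.001 over all genes tested. With a block for the 3 runs of sample numbers (1 sample of every group in each), 15 members fell and 3 rose, beside 21.6% of all genes lower and 25.2% higher. On 16 members every FECH siRNA array lay below every control siRNA array (24.1% of all genes), and on 4 every one lay above (27.1% of all genes). In a bulk sample, fewer cells that hold a transcript and less of it per cell cannot be told apart.

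**Figure D1:**
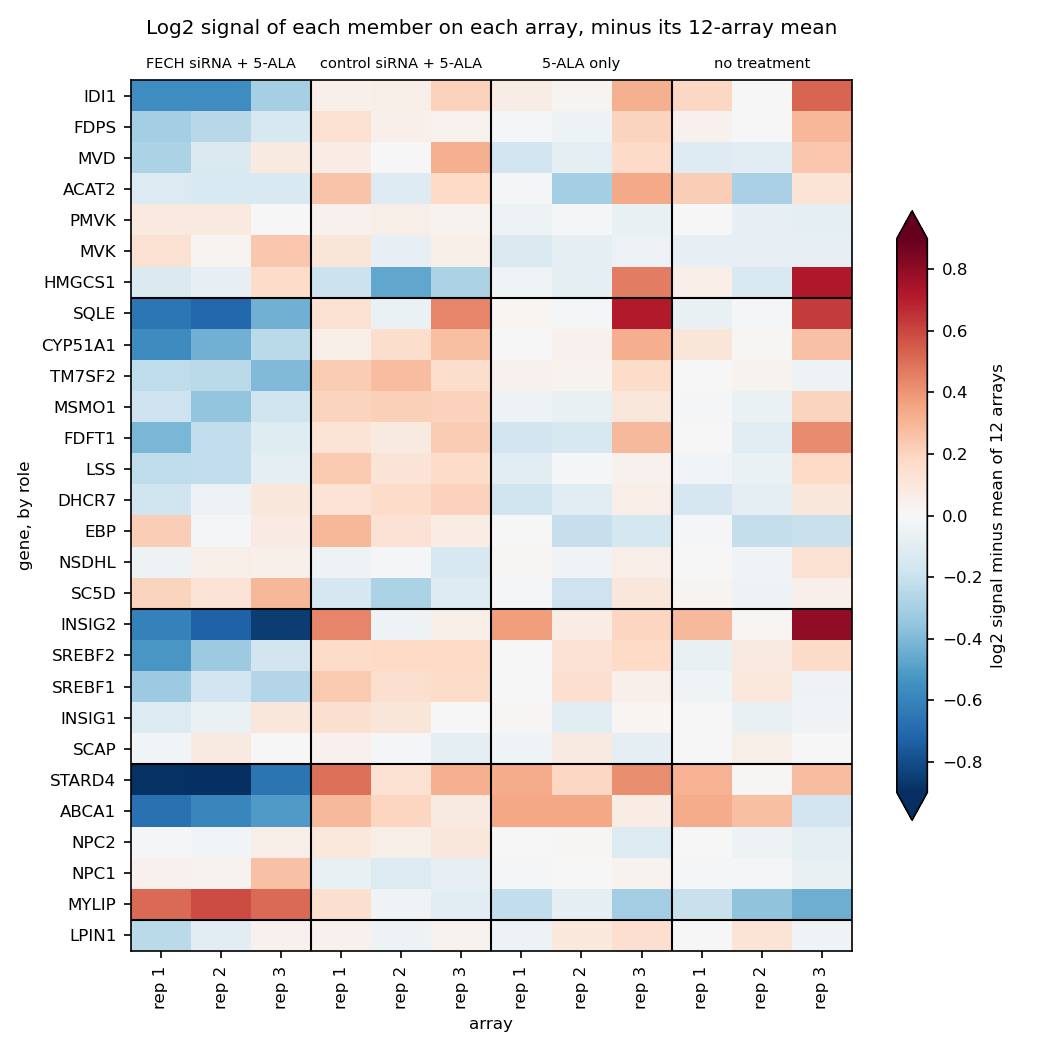
Log2 signal of each tested member on each of the 12 arrays, shown as the difference from that member's mean over all arrays (colour scale), with genes in rows by role and arrays in columns by group. STARD4, INSIG2, ABCA1 and SQLE are low on the 3 FECH siRNA arrays, MYLIP is high there, and the third arrays of the other groups are high for SQLE and of the groups without siRNA for HMGCS1.

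The mevalonate stage is made up of ACAT2, HMGCS1, MVK, PMVK, MVD, IDI1 and FDPS. Of these 7, 2 fell with FECH siRNA against control siRNA and none rose, where 17.8% of all genes fell and 20.4% rose. IDI1, which turns isopentenyl diphosphate into its more reactive isomer, was at 9.98, 9.98 and 10.24 on the FECH siRNA arrays, against 10.59, 10.59 and 10.75 on the control siRNA arrays (log2). The groups did not overlap, and IDI1 fell by 0.58 (SE 0.12, limma adjusted p = 0.0021), a 1.49-fold difference. FDPS, which joins those units into farnesyl diphosphate, the branch point to sterols and to prenyl groups, was at 8.86, 8.92 and 9.02 with FECH siRNA and at 9.31, 9.22 and 9.20 with control siRNA. Its arrays did not overlap either, and it fell by 0.31 (SE 0.09, limma adjusted p = 0.014). The FDPS call was lost without FECH siRNA replicate 1 (limma adjusted p = 0.057) or without control siRNA replicate 1 (0.053).

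HMGCS1, the synthase that makes HMG-CoA, went the other way from IDI1 and FDPS in its values. It was at 9.62, 9.67 and 9.91 with FECH siRNA, against 9.55, 9.28 and 9.46 with control siRNA, 9.70, 9.66 and 10.21 with 5-ALA only and 9.81, 9.61 and 10.47 without treatment. Every FECH siRNA array was above every control siRNA array, but the difference of 0.30 (SE 0.19) did not pass (limma adjusted p = 0.24), and it passed only when those 6 arrays were fitted alone (limma adjusted p = 0.027). Control siRNA was the lowest of the 4 groups for this gene, and the FECH siRNA arrays lay within the span of the groups that had no siRNA. MVD, which makes isopentenyl diphosphate, was at 8.80, 8.95 and 9.17 with FECH siRNA and at 9.15, 9.09 and 9.41 with control siRNA, a difference of -0.24, which missed the threshold (limma adjusted p = 0.15). With the runs as a block its limma adjusted p was 0.0024. The kinases MVK (0.10) and PMVK (0.02) and the thiolase ACAT2 (-0.24) did not pass the test.

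The sterol stage runs from squalene synthesis to the last double bonds. Of its 10 tested enzymes 6 fell and 1 rose, where 17.8% of all genes fell and 20.4% rose. SQLE, the squalene epoxidase that is a rate-limiting step, had the largest fall among the enzymes. It was at 8.94, 8.88 and 9.16 with FECH siRNA, against 9.72, 9.53 and 10.03 with control siRNA, 9.61, 9.57 and 10.30 with 5-ALA only and 9.52, 9.57 and 10.22 without treatment. All 3 FECH siRNA arrays lay below the other 9, and against control siRNA SQLE fell by 0.77 (SE 0.21, limma adjusted p = 0.0100), a 1.70-fold difference. CYP51A1, the cytochrome P450 that removes a methyl group from lanosterol and carries heme as its cofactor, was at 9.39, 9.52 and 9.72 with FECH siRNA and at 10.01, 10.12 and 10.23 with control siRNA. It fell by 0.57 (SE 0.11, limma adjusted p = 7.2e-04), and its groups did not overlap.

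TM7SF2, a sterol C14 reductase that acts right after CYP51A1, was at 7.91, 7.90 and 7.74 with FECH siRNA, against 8.37, 8.42 and 8.30 with control siRNA. It fell by 0.51 (SE 0.07, limma adjusted p = 3.8e-05). MSMO1, the sterol methyl oxidase that takes off the remaining methyl groups at carbon 4 with NSDHL and HSD17B7, was at 11.82, 11.64 and 11.82 with FECH siRNA, against 12.20, 12.22 and 12.21 with control siRNA. The control siRNA arrays of MSMO1 were close together and all above the FECH siRNA arrays, and it fell by 0.45 (SE 0.08, limma adjusted p = 5.2e-04). LSS, the cyclase that forms lanosterol, was at 10.32, 10.33 and 10.46 with FECH siRNA and at 10.78, 10.66 and 10.71 with control siRNA, and it fell by 0.35 (SE 0.07, limma adjusted p = 0.0019).

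FDFT1, the squalene synthase, was at 10.94, 11.13 and 11.24 with FECH siRNA and at 11.47, 11.43 and 11.58 with control siRNA, a fall of 0.39 (SE 0.14, limma adjusted p = 0.042). Of the 13 falls it passed under the fewest alternatives, 9 of 16. It was lost without FECH siRNA replicate 1 (limma adjusted p = 0.154), FECH siRNA replicate 2 (0.082), control siRNA replicate 1 (0.078), control siRNA replicate 2 (0.070) or control siRNA replicate 3 (0.118), without the filter on dim probe sets (0.055) and with arrays centred on their medians (0.055). With the runs as a block FDFT1 had a limma adjusted p of 0.0021.

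SC5D, the lathosterol desaturase, was the 1 enzyme that rose. It was at 11.00, 10.92 and 11.09 with FECH siRNA, against 10.65, 10.52 and 10.68 with control siRNA, 10.78, 10.61 and 10.90 with 5-ALA only and 10.83, 10.75 and 10.85 without treatment. All FECH siRNA arrays were above all others, and against control siRNA the rise was 0.39 (SE 0.08, limma adjusted p = 0.0016). The step after SC5D is taken by DHCR7, which was at 11.59, 11.71 and 11.87 with FECH siRNA and at 11.89, 11.93 and 11.97 with control siRNA. That difference of -0.21 did not pass (limma adjusted p = 0.083), but passed with the runs as a block (limma adjusted p = 0.0061) and without FECH siRNA replicate 3 (-0.28, limma adjusted p = 0.032). The sterol isomerase EBP (-0.07) and the dehydrogenase NSDHL (0.08) did not pass the test.

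The sensing machinery fell in 3 of its 5 tested members and none rose, where 17.8% of all genes fell and 20.4% rose. INSIG2, which holds SCAP in the endoplasmic reticulum when sterols are high, had 8.03, 7.91 and 7.79 with FECH siRNA, against 9.08, 8.60 and 8.69 with control siRNA, 9.02, 8.71 and 8.83 with 5-ALA only and 8.93, 8.66 and 9.44 without treatment. The FECH siRNA arrays were below all others, and against control siRNA INSIG2 fell by 0.88 (SE 0.17, limma adjusted p = 0.0010), or 1.84-fold. Its paralog INSIG1, a known SREBP target, had 11.33, 11.40 and 11.56 with FECH siRNA and 11.60, 11.57 and 11.45 with control siRNA. The INSIG1 groups overlapped and its difference of -0.11 did not pass (limma adjusted p = 0.25).

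SREBF2, which encodes the SREBP that acts most on cholesterol genes and itself holds the TCACNCCAC match shown above, was at 9.27, 9.47 and 9.64 with FECH siRNA. The control siRNA arrays stood at 9.97, 9.98 and 9.98, and SREBF2 fell by 0.51 (SE 0.09, limma adjusted p = 4.8e-04). A second probe set of SREBF2 was below the filter level on every array, at 6.03 to 6.43, and was not tested. SREBF1, whose SREBP acts more on fatty acid genes, was at 9.22, 9.37 and 9.28 with FECH siRNA and at 9.78, 9.69 and 9.71 with control siRNA. Its groups did not overlap and it fell by 0.44 (SE 0.07, limma adjusted p = 1.6e-04). SCAP, the escort of both SREBPs, differed by 0.04 and did not pass (limma adjusted p = 0.65).

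Among the 5 tested genes of uptake, transport and efflux, 2 fell and 2 rose, where 17.8% of all genes fell and 20.4% rose. STARD4, a soluble carrier that moves cholesterol between membranes and a known SREBP target, had the largest difference of the whole set. It was at 8.35, 8.30 and 8.58 with FECH siRNA, against 9.73, 9.37 and 9.56 with control siRNA, 9.57, 9.42 and 9.65 with 5-ALA only and 9.55, 9.25 and 9.51 without treatment. The FECH siRNA arrays were well below the other 9 arrays, which overlapped one another. Against control siRNA STARD4 fell by 1.15 (SE 0.11, limma adjusted p = 2.9e-06), a 2.21-fold difference.

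ABCA1, the LXR target that exports cholesterol to apolipoproteins, was at 9.82, 9.91 and 9.98 with FECH siRNA, against 10.78, 10.69 and 10.57 with control siRNA, 10.84, 10.84 and 10.56 with 5-ALA only and 10.82, 10.76 and 10.32 without treatment. All FECH siRNA arrays were lower than all others, and against control siRNA ABCA1 fell by 0.78 (SE 0.12, limma adjusted p = 1.7e-04), or 1.72-fold. MYLIP, another LXR target and the ubiquitin ligase that sends lipoprotein receptors to the lysosome, moved in the opposite direction. It was at 9.69, 9.77 and 9.69 with FECH siRNA, against 9.32, 9.15 and 9.08 with control siRNA, 8.96, 9.10 and 8.86 with 5-ALA only and 8.98, 8.82 and 8.74 without treatment. The rise against control siRNA was 0.53 (SE 0.08, limma adjusted p = 2.1e-04), or 1.45-fold.

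NPC1 and NPC2 together let cholesterol leave the lysosome. NPC1, the membrane protein of the pair, was at 11.38, 11.37 and 11.61 with FECH siRNA and at 11.27, 11.21 and 11.27 with control siRNA, a rise of 0.20 (SE 0.07, limma adjusted p = 0.028). The NPC1 call was lost without FECH siRNA replicate 3 (0.12, limma adjusted p = 0.123), without control siRNA replicate 2 (0.090) or replicate 3 (0.053), after cyclic loess (0.054) and when only the groups compared were fitted (0.057). NPC2, which hands cholesterol to NPC1, was at 12.64, 12.63 and 12.71 with FECH siRNA, against 12.75, 12.71 and 12.75 with control siRNA, and its difference of -0.08 did not pass (limma adjusted p = 0.31). LPIN1, a phosphatidate phosphatase that acts in lipid synthesis and feeds back on SREBPs, was at 9.87, 10.01 and 10.15 with FECH siRNA and at 10.15, 10.07 and 10.14 with control siRNA. Its difference of -0.11 did not pass the test (limma adjusted p = 0.29).

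**Figure D2:**
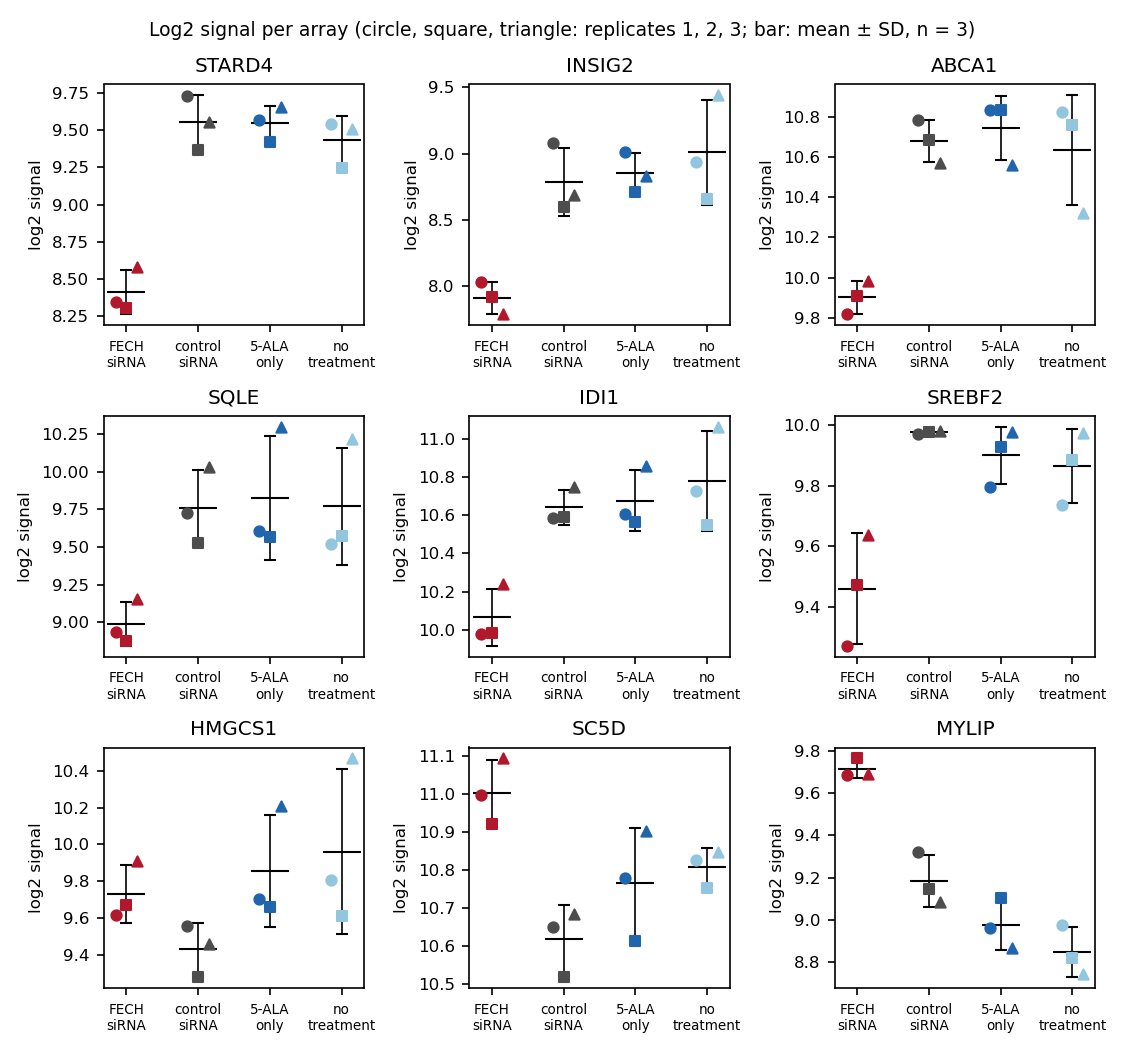
Log2 signal of single members on each array (points) by group, with the mean and SD of the 3 arrays (line and bar). STARD4, INSIG2, ABCA1 and SQLE lie lowest with FECH siRNA, MYLIP and SC5D lie highest there, and HMGCS1 has its lowest mean with control siRNA.

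FECH siRNA was also set against 5-ALA only, which leaves transfection as a further difference between the groups. The FECH siRNA arrays are the same ones in every comparison of that group, so its comparisons are not independent of each other. Here 11 of the 28 members fell and 3 rose (limma), beside 17.5% of all genes lower and 19.5% higher, and the median difference of the members was -0.15, against 0.02 for all genes. The falls were led again by STARD4 (-1.14, limma adjusted p = 3.3e-06), INSIG2 (-0.94, 6.4e-04), ABCA1 (-0.84, 9.7e-05) and SQLE (-0.83, 0.0062). IDI1 (-0.61), CYP51A1 (-0.54), SREBF2 (-0.44), TM7SF2 (-0.37) and SREBF1 (-0.32) fell too. MYLIP rose by 0.74 (limma adjusted p = 1.3e-05).

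The smaller calls against 5-ALA only were lost when 1 or another of several arrays was left out. FDPS fell by 0.28 (limma adjusted p = 0.022), but did not pass without FECH siRNA replicate 1 (0.081), FECH siRNA replicate 2 (0.065) or 5-ALA only replicate 3 (0.102). MSMO1 fell by 0.24 (limma adjusted p = 0.029), but did not pass without FECH siRNA replicate 2 (0.134) or 5-ALA only replicate 3 (0.117). SC5D rose by 0.24 (limma adjusted p = 0.030), a call lost without FECH siRNA replicate 1 (0.063) or 3 (0.113) and without 5-ALA only replicate 1 (0.060) or 2 (0.141). MVK, the mevalonate kinase, was at 9.01, 8.90 and 9.12 with FECH siRNA, against 8.75, 8.79 and 8.82 with 5-ALA only. It rose by 0.22 (limma adjusted p = 0.018), a call lost without FECH siRNA replicate 3 (0.084) or 5-ALA only replicate 1 (0.063). With the runs as a block the calls of FDPS (limma adjusted p = 0.0060), MSMO1 (0.0070), SC5D (0.0022) and MVK (0.0081) held. LSS (-0.15), FDFT1 (-0.24) and NPC1 (0.11) did not pass in this comparison, and with the runs as a block FDFT1 fell (limma adjusted p = 0.032) and EBP rose by 0.22 (0.0028).

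Against no treatment, 12 members fell and 2 rose with FECH siRNA (limma), beside 16.3% of all genes lower and 21% higher. The median difference of the members was -0.18, against 0.02 for all genes tested. INSIG2 had the largest fall here, at 1.10 (SE 0.17, limma adjusted p = 1.9e-04), followed by STARD4 at 1.03 (8.3e-06), SQLE at 0.78 (0.0093), ABCA1 at 0.73 (3.0e-04) and IDI1 at 0.71 (4.4e-04). CYP51A1 (-0.54), SREBF2 (-0.40), FDPS (-0.35), TM7SF2 (-0.28) and SREBF1 (-0.26) fell as well, and MYLIP rose by 0.87 (limma adjusted p = 3.3e-06).

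The weakest calls against no treatment were again those of small size. LSS fell by 0.21 (limma adjusted p = 0.037), which was lost without FECH siRNA replicate 1 (0.114) or 2 (0.115), without the untreated replicate 3 (0.150) and when only the groups compared were fitted (0.082). MSMO1 fell by 0.28 (limma adjusted p = 0.012), which was lost without FECH siRNA replicate 2 (0.066) or the untreated replicate 3 (0.051). MVK rose by 0.21 (limma adjusted p = 0.025), which was lost without FECH siRNA replicate 1 (0.059) or 3 (0.108) and without the untreated replicate 1 (0.056) or 2 (0.058). FDFT1 (-0.36), SC5D (0.20) and EBP (0.24) did not pass, and each passed with the runs as a block (limma adjusted p = 0.0039, 0.0073 and 0.0016). With that block 13 members fell and 4 rose, beside 20% of all genes lower and 26.3% higher. FDFT1 also passed without the untreated replicate 2 (-0.46, 0.033), and EBP without the untreated replicate 1 (0.30, 0.023) or FECH siRNA replicate 2 (0.29, 0.043).

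**Figure D3:**
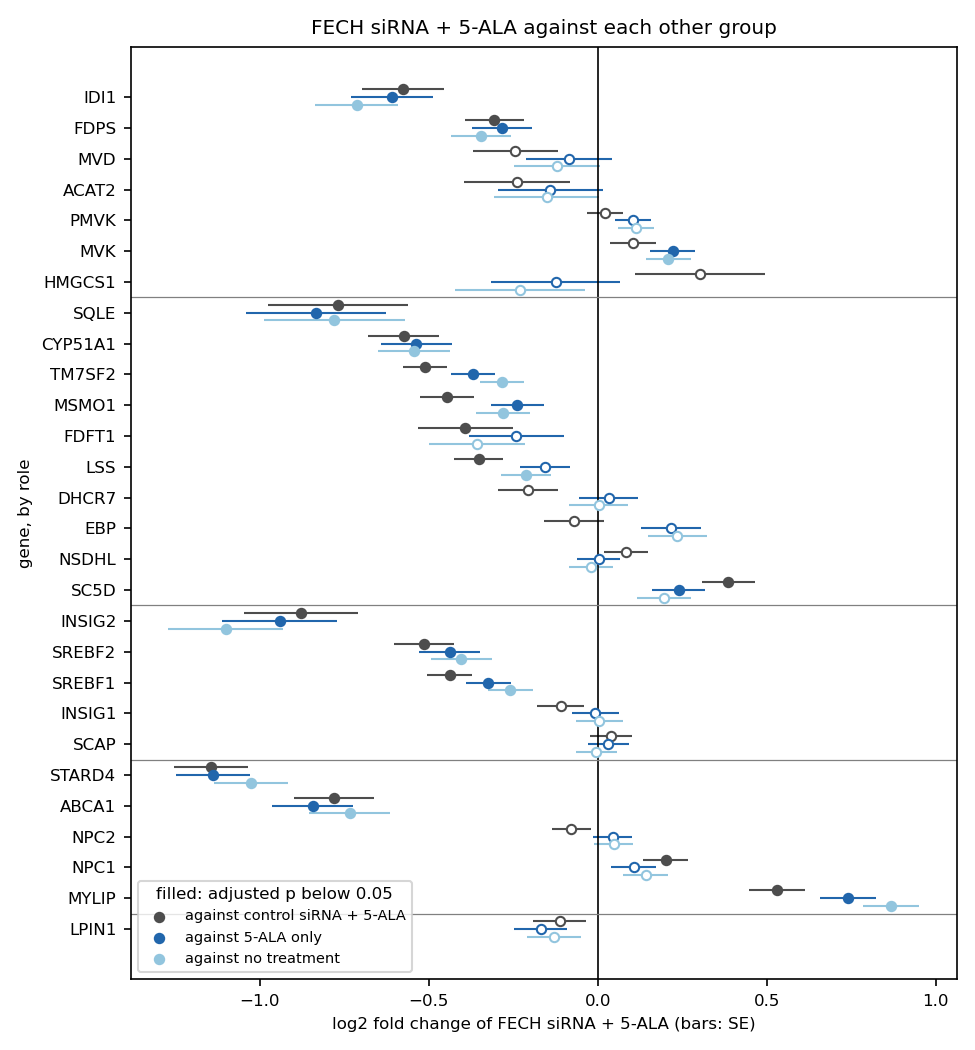
Log2 fold change of each tested member with FECH siRNA against control siRNA, 5-ALA only and no treatment (points, with bars for 1 SE), in order of role, filled where the limma adjusted p is below 0.05. STARD4 lies near -1.15 in the first comparison and MYLIP at 0.53 to 0.87 over the 3 comparisons, which share the FECH siRNA arrays.

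Control siRNA was set against 5-ALA only to ask what transfection itself did to these genes. None of the 28 members passed the test in either direction (limma), beside 3.68% of all genes lower and 2.52% higher, and 7 members had an unadjusted p below 0.05 (21.1% of all genes). With the runs as a block 1 member fell and 4 rose, beside 7.53% of all genes lower and 6.07% higher. HMGCS1 was at 9.55, 9.28 and 9.46 with control siRNA, against 9.70, 9.66 and 10.21 with 5-ALA only. Its arrays did not overlap, and the difference of -0.43 (SE 0.19) had a limma adjusted p of 0.22, or 0.041 with the block. EBP was at 11.11, 10.94 and 10.87 with control siRNA, against 10.81, 10.60 and 10.65 with 5-ALA only, a difference of 0.29 (limma adjusted p = 0.074, or 0.0030 with the block). DHCR7 (0.24), MSMO1 (0.21) and LSS (0.20) passed only with the block (limma adjusted p = 0.012, 0.043 and 0.049).

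This comparison shares its control siRNA arrays with that of FECH siRNA against control siRNA, so a high control siRNA value moves the differences of both, in opposite directions. For DHCR7 the mean was 11.72 with FECH siRNA, 11.93 with control siRNA and 11.69 with 5-ALA only. For STARD4, SQLE, IDI1 and CYP51A1 the differences of control siRNA from 5-ALA only were 0.01, -0.06, -0.03 and 0.04, all far from passing. Other members that fell against control siRNA had higher values: MSMO1 0.21, LSS 0.20, FDFT1 0.15, TM7SF2 0.14, SREBF1 0.11 and SREBF2 0.08. FDPS was at 0.02, and ABCA1 and INSIG2 were both at -0.06.

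Against no treatment, 1 member rose with control siRNA and none fell (limma), beside 2.22% of all genes lower and 2.39% higher. The 1 gene was MYLIP, at 9.32, 9.15 and 9.08 with control siRNA, against 8.98, 8.82 and 8.74 without treatment. It rose by 0.34 (SE 0.08, limma adjusted p = 0.036), but did not pass without control siRNA replicate 1 (0.133) or 2 (0.084), without the untreated replicate 2 (0.091) or 3 (0.106), with centred arrays (0.086) or in a fit of only these groups (0.115). MYLIP thus had its lowest mean in untreated cells, a higher one with control siRNA and its highest with FECH siRNA. With the runs as a block 2 members fell and 4 rose, beside 4.84% of all genes lower and 5.83% higher. Those were HMGCS1 (-0.53, limma adjusted p = 0.020) and SC5D (-0.19, 0.034), and EBP (0.31, 0.0024), MYLIP (0.34, 0.010), DHCR7 (0.21, 0.025) and TM7SF2 (0.23, 0.037). EBP also passed without the untreated replicate 1 (0.37, limma adjusted p = 0.047).

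The comparison of 5-ALA only with no treatment asks what the heme precursor did on its own. None of the 28 members passed in either direction (limma), beside 0% of all genes lower and 0.0165% higher, and 0 members had an unadjusted p below 0.05, against 2.82% of all genes. The differences ran from -0.16 for INSIG2 to 0.13 for MYLIP on the log2 scale, with a median of -0.009. The arrays of both groups overlapped for every member, where 2.77% of all genes had every 5-ALA only array below and 3.6% every one above. A miss of this test does not show that the levels were equal: for SQLE, at 9.82 ± 0.41 with 5-ALA only and 9.77 ± 0.39 without treatment (SD, n = 3 each), the SE of the difference was 0.21. With the runs as a block that SE was 0.09, and the difference of 0.05 did not pass (limma adjusted p = 0.92).

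The spread inside the groups had a pattern of its own. Sample numbers run from 1 to 12 in 3 runs, each with 1 sample of every group, and what the runs stand for is not given in the labels. The third array was the highest of its group in all 4 groups for 7 of the 17 tested enzymes of synthesis (41.2%), against 970 of 12151 genes (7.98%). The first array was so for 1 of 17 enzymes, against 7.45% of all genes, and the second for 0 of 17, against 3.00% of all genes. SQLE was higher on the third array than the mean of the first and second by 0.25 with FECH siRNA, 0.40 with control siRNA, 0.71 with 5-ALA only and 0.67 without treatment. HMGCS1 was higher by 0.27 with FECH siRNA, 0.05 with control siRNA, 0.53 with 5-ALA only and 0.76 without treatment. Averaged over the groups, the third array was higher by 0.51 for SQLE, 0.40 for HMGCS1, 0.31 for FDFT1, 0.31 for MVD, 0.28 for IDI1 and 0.23 for CYP51A1. For ABCA1 it was lower, at -0.20, and the median was 0.14 over the enzymes of synthesis and 0.009 over all genes tested. Every run holds each group once, so these differences lie across the comparisons of groups, and their part in the results is shown by the values with the runs as a block.

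**Figure D4:**
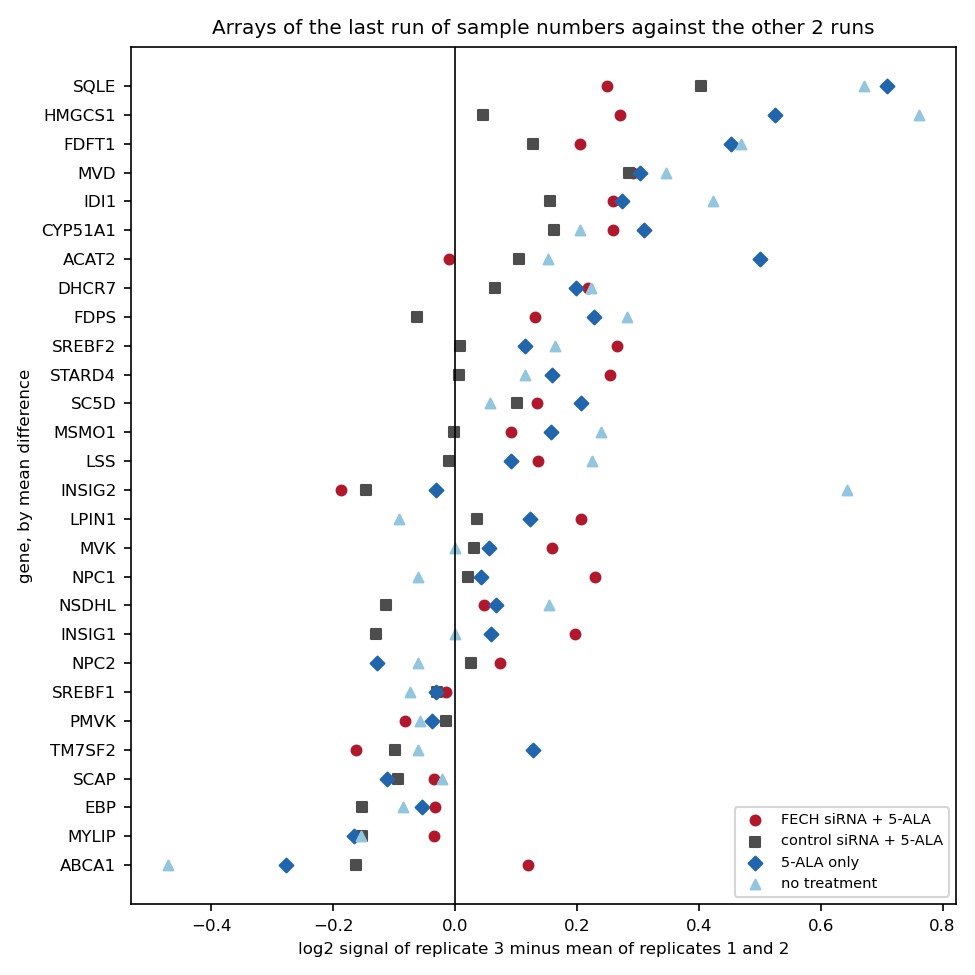
Log2 signal on the third array of each group minus the mean of the first and second arrays, for each tested member (points by group). SQLE lies between 0.25 and 0.71 in the 4 groups, while ABCA1 lies between -0.47 and 0.12.

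Other genes of the pathway, from lists chosen by function, were read beside the members, again for FECH siRNA against control siRNA. Of 5 tested late sterol and oxysterol genes, 1 of them the pseudogene HSD17B7P2, 4 fell and none rose (limma), where 17.8% of all genes fell. LBR, a nuclear envelope protein that is also a sterol C14 reductase like TM7SF2, fell by 0.48 (limma adjusted p = 0.0019). CYP27A1, a sterol hydroxylase, fell by 0.33 (limma adjusted p = 0.011), a call lost without control siRNA replicate 2 (0.0503). The hydroxylase CH25H is counted among the falls, but averaged 7.10 ± 0.10 with FECH siRNA, under the filter level, and 7.48 ± 0.17 with control siRNA (SD, n = 3 each), so that it was tested only through the group where it was high. ERG28, a scaffold of the enzymes that take off the methyl groups at carbon 4, averaged 12.26 ± 0.03 with FECH siRNA, 12.48 ± 0.05 with control siRNA and 12.19 ± 0.04 with 5-ALA only (SD, n = 3 each), and fell against control siRNA by 0.23 (limma adjusted p = 0.0073). Against 5-ALA only, CYP27A1 differed by -0.12 and ERG28 by 0.07, and neither passed. In that comparison 1 of the 5 genes fell (limma, 17.5% of all genes). Control siRNA itself rose against 5-ALA only for 2 of the 5 (limma, 2.52% of all genes).

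Several sterol enzymes draw electrons from cytochrome b5 or from the P450 reductase, and of 8 tested genes, for these donors and for the related heme-binding membrane proteins PGRMC1 and PGRMC2, 3 fell and 1 rose, where 17.8% of all genes fell and 20.4% rose. CYB5R4, a cytochrome b5 reductase, fell by 1.00 (SE 0.08, limma adjusted p = 3.9e-07), and POR, the reductase that feeds CYP51A1 and SQLE, fell by 0.21 (0.012). PGRMC1 rose by 0.66 (limma adjusted p = 2.1e-06) and PGRMC2 fell by 0.42 (2.8e-04). PGRMC1 averaged 11.90 ± 0.07 with FECH siRNA, 11.24 ± 0.06 with control siRNA and 11.71 ± 0.06 with 5-ALA only (SD, n = 3 each), and its difference of control siRNA from 5-ALA only also passed (-0.47, limma adjusted p = 6.8e-04).

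Of 18 tested genes that carry, cut or degrade SREBPs and the sterol-regulated enzymes, 5 rose and 3 fell, counts near the 20.4% and 17.8% of all genes. MBTPS2, the protease that makes the second cut in SREBPs, fell by 0.60 (limma adjusted p = 4.6e-04), and was at 9.45 ± 0.12 with FECH siRNA, 10.05 ± 0.13 with control siRNA and 10.50 ± 0.12 with 5-ALA only (SD, n = 3 each). FAF2, which helps pull proteins out of the endoplasmic reticulum for degradation, fell by 0.63 (limma adjusted p = 3.8e-05), and ERLIN1, which binds cholesterol in that membrane, rose by 0.45 (4.8e-05). SEC24A, a coat protein of the vesicles that leave it, rose by 0.55 against control siRNA (limma adjusted p = 6.4e-04), but averaged 10.26 ± 0.09 with FECH siRNA, 9.71 ± 0.12 with control siRNA and 10.33 ± 0.10 with 5-ALA only. SEC24A thus differed between FECH siRNA and 5-ALA only by -0.07, which did not pass, while control siRNA fell against 5-ALA only by 0.62 (limma adjusted p = 0.0028).

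Of 14 tested lipoprotein receptors, LXR genes and LXR targets, 3 rose and 1 fell, where 20.4% of all genes rose and 17.8% fell. With the runs as a block 5 rose and 2 fell, beside 25.2% and 21.6% of all genes. VLDLR, a lipoprotein receptor that MYLIP can send to degradation, rose by 0.63 (limma adjusted p = 3.8e-05). LRP8, a related receptor that MYLIP can also send there, rose by 0.28 (limma adjusted p = 0.039). The LRP8 call was lost without control siRNA replicate 1 (limma adjusted p = 0.085) or 2 (0.146), without FECH siRNA replicate 2 (0.066) or 3 (0.162), without the filter (0.052) and after cyclic loess (0.051). SMPDL3A, an LXR target, rose by 0.34 (limma adjusted p = 0.0024), but its mean of 7.12 with control siRNA lay below the filter level, so that it was tested only through the group where it was high. LPCAT3, an LXR target that places polyunsaturated chains in phospholipids, fell by 0.39 (limma adjusted p = 4.1e-04).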

How the data were processed

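Total RNA of 12 samples was hybridized to arrays. The deposited signals are linear intensities of 21.0 to 23641, which the authors made with RMA in oligo, per the submitters' processing notes. No version or build is given in the sources used here. Between the deposited workbook and the value table, signals differ by no more than 5e-05. Another 12 per-sample columns of the workbook were not used. The design had foreseen log2 values, so their log2 was taken here (pseudocount 0).

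Of 28869 probe sets, 6741 carry no symbol and 2191 several, and both kinds were left out. Of the other 19937, 19309 were brought to current symbols by Entrez number (RefSeq, GRCh38.p14) and 628 kept the file's name, and 27 symbols turned into date numbers by a spreadsheet were restored. Genes were kept when above the median of all probe sets, 7.29 in log2, on at least 3 arrays, with the probe set of highest mean for each symbol. No detection values were used, so a signal below this level has not been shown to exceed background, and the number of arrays limits the precision.

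limma 3.58.1 in R 4.3.3 fitted 1 mean per group over all 12 arrays, with default eBayes, two-sided p-values and Benjamini-Hochberg adjustment over 12151 genes within each of 6 comparisons. The fit was tested on simulated data with independent noise on each array, so that test does not cover the runs of sample numbers. After removal of group means, arrays of different groups correlated over genes at 0.207 to 0.539 in the same run of sample numbers (18 pairs) and at -0.436 to 0.154 in different runs (36 pairs), so the runs were taken to pair the samples. The block fit was planned as an alternative, so p-values given without mention of the block leave this pairing out. For SQLE against control siRNA the limma adjusted p was 0.0100 in the planned fit and 3.7e-05 with the block. The other alternatives were no filter, a stricter filter, a fit of only the groups compared, trended and robust variance, cyclic loess, median centring, array weights, the other deposited values and each replicate left out. Leaving out the third untreated array in comparisons without that group was added after the data were seen.

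The members, the lists of other pathway genes and the tests were chosen with earlier results of these data known. Every member is accounted for, and those past the test against control siRNA are given array by array. From each other list up to 4 genes past the test with the largest difference are named. Windows of 250 bases before to 50 after a start were searched on both strands. Some genes of this pathway are not reported here.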

Additional observations from a re-analysis of the deposited data

How the results depend on the processing

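No difference that passed the test, in the planned fit or in the alternative, had the opposite sign in the other, while some differences that passed in neither changed sign. Against control siRNA, 13 of the 16 calls passed under every alternative in which the gene was tested, and FDFT1, FDPS and NPC1 did not. TM7SF2 is among the 13, but it was tested under 15 alternatives, where the others of the 13 were tested under 16. Counted in the same way, 10 of 14 calls passed against 5-ALA only, 11 of 14 against no treatment, and 22 of 24 for the other pathway genes named. Those 22 include CH25H, GRAMD1C and SMPDL3A, which were tested under 15 of the 16 alternatives. TM7SF2 was tested under 15 of 16 against 5-ALA only and 14 of 15 against no treatment. The number of members that fell with FECH siRNA ran from 11 to 15 against control siRNA, 9 to 13 against 5-ALA only and 10 to 13 against no treatment.

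In the fit with a replicate block for the runs, the counts against control siRNA were 15 fallen and 3 risen. FECH siRNA against no treatment had 2 risen members, but 4 with the replicate block, 4 with array weights, 1 when only the groups compared were fitted and 1 to 3 when replicates were left out. FECH siRNA against 5-ALA only had 3 risen members, 4 with the replicate block and 1 to 3 when replicates were left out, the lowest without FECH siRNA replicate 3. Control siRNA against 5-ALA only had none, but 1 fallen and 4 risen with the replicate block and 1 risen with array weights. Control siRNA against no treatment had 1 risen and 0 fallen members, but 4 and 2 with the replicate block, 0 risen with only the groups compared or with centred arrays, and 0 to 2 risen when replicates were left out. The block changed no call of a member other than those given beside the results. Why these counts moved was not tested. The block also raised the calls over all genes, against control siRNA from 17.8% to 21.6% lower and from 20.4% to 25.2% higher. No share over all genes is given here for FECH siRNA against 5-ALA only with the block. The same holds for array weights, fits of only the groups compared and left-out replicates. Those counts are therefore not read as results about the members. Array weights also brought EBP (a rise), LSS (-0.18) and LPIN1 (-0.19) past the test against 5-ALA only. In that comparison EBP also passed without 5-ALA only replicate 1, and LPIN1 without FECH siRNA replicate 3 (-0.24).

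With arrays centred on their medians, 1835 genes fell and 2683 rose against control siRNA, and 537 fell and 169 rose with control siRNA against 5-ALA only. The members' fold changes rest on 3 arrays a group, which limits the small ones most.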

Other observations

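Of 14 tested genes of the isoprenoid branch, which leaves the pathway at farnesyl diphosphate, 4 rose and 2 fell with FECH siRNA against control siRNA (limma, 20.4% of all genes rose and 17.8% fell), or 7 and 2 with the runs as a block (25.2% and 21.6% of all genes). RABGGTB, a subunit of the enzyme that prenylates Rab proteins, averaged 10.48 ± 0.11 with FECH siRNA and 9.78 ± 0.14 with control siRNA (SD, n = 3 each; limma adjusted p = 3.2e-04). Its difference of 0.69 was the highest of the 14, but against 5-ALA only the highest of the 14 was 0.44. Control siRNA itself differed from 5-ALA only by -0.40 to 0.23 over these genes. DHDDS, which starts dolichol, rose by 0.41 (limma adjusted p = 5.0e-04). COX10, which uses farnesyl diphosphate to turn heme b into heme o, rose by 0.40 (limma adjusted p = 2.3e-04), and ZMPSTE24, a protease that trims prenylated proteins, fell by 0.76 (2.2e-04).

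Of 24 tested genes for cholesterol ester storage and sterol carriers, 5 rose and 3 fell, where 20.4% of all genes rose and 17.8% fell. With the block 10 rose and 4 fell, beside 25.2% and 21.6% of all genes. OSBPL10, an oxysterol-binding protein homologue, rose by 0.81 (limma adjusted p = 2.2e-06), and NCEH1, a cholesterol ester hydrolase, rose by 0.57 (1.1e-05). SCARB2, a lysosomal membrane protein that can carry cholesterol, averaged 9.93 ± 0.08 with FECH siRNA and 10.93 ± 0.14 with control siRNA (SD, n = 3 each; limma adjusted p = 5.1e-07). GRAMD1C, which moves cholesterol from the plasma membrane inward, fell by 1.04 (limma adjusted p = 6.8e-07), with a mean of 6.78 with FECH siRNA that lay below the filter level.

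The probe set shared by HSD17B7, a ketoreductase of the sterol stage, and its pseudogene HSD17B7P2 averaged 8.39 ± 0.09 with FECH siRNA, 8.19 ± 0.10 with control siRNA, 8.19 ± 0.22 with 5-ALA only and 8.19 ± 0.17 without treatment (SD, n = 3 each). It was not tested, since the signals of the gene and the pseudogene cannot be told apart. HSD17B7P2 has a further probe set of its own, which averaged 7.76 ± 0.20 with FECH siRNA and 7.58 ± 0.11 with control siRNA (SD, n = 3 each), a difference of 0.18 that missed the threshold (limma adjusted p = 0.35).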
